A study of Mus musculus with 96 samples.

Results

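The intestine of Scx-/- mice was compared with the intestine of wild-type mice in the 6 libraries labelled intestine, 3 of each genotype, out of 96 libraries in 16 tissues. All mice were 3 weeks old, which is close to weaning, and genotype, wild-type or lacking Scx (Scleraxis), is the labelled difference between the groups. The comparison took in every gene with at least 1 count in any of the 6 libraries, 12068 of the 41575 gene symbols listed. Whole organs were collected, and the labels name no segment of the gut. Neither the sex of the mice nor which libraries came from 1 mouse is stated in the sources used here, so p-values measure the spread between libraries.

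Scleraxis is a transcription factor of tendon and ligament progenitors. The inner surface of the gut is lined by enterocytes, which carry digestive enzymes and transporters on their brush border, together with mucus-producing goblet cells, hormone-secreting enteroendocrine cells and, in the crypts of the small intestine, Paneth cells that release antimicrobial proteins. At weaning the enterocytes pass from enzymes suited to milk to those of the adult, and Paneth cell products and the carrier of secretory IgA increase. Smooth muscle and connective tissue form the wall around this lining.

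Total counts were 386890, 127356 and 93927 in the wild-type libraries and 54955, 30014 and 26500 in the Scx-/- libraries, so that the genotypes did not overlap in depth. A single count was worth 2.58 to 10.6 CPM (the counts of a gene scaled to a common library total) in wild-type and 18.2 to 37.7 CPM in Scx-/- libraries. Genes with a count numbered 5884 to 9971 in wild-type and 2916 to 4692 in Scx-/- intestine. After every library was thinned at random to 26500 counts, 5177 ± 641 (SD, n = 3) genes remained in wild-type and 3358 ± 533 (SD, n = 3) in Scx-/- libraries, and the groups still did not overlap (exact permutation test, two-sided p = 0.1, the smallest that 3 against 3 can give). The TMM normalization factors ran from 0.765 to 0.967 in wild-type and from 1.004 to 1.28 in Scx-/- libraries, falling as depth rose. The parts of depth, of the number of transcripts sampled and of genotype in the results that follow cannot be told apart.

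**Figure D1:**
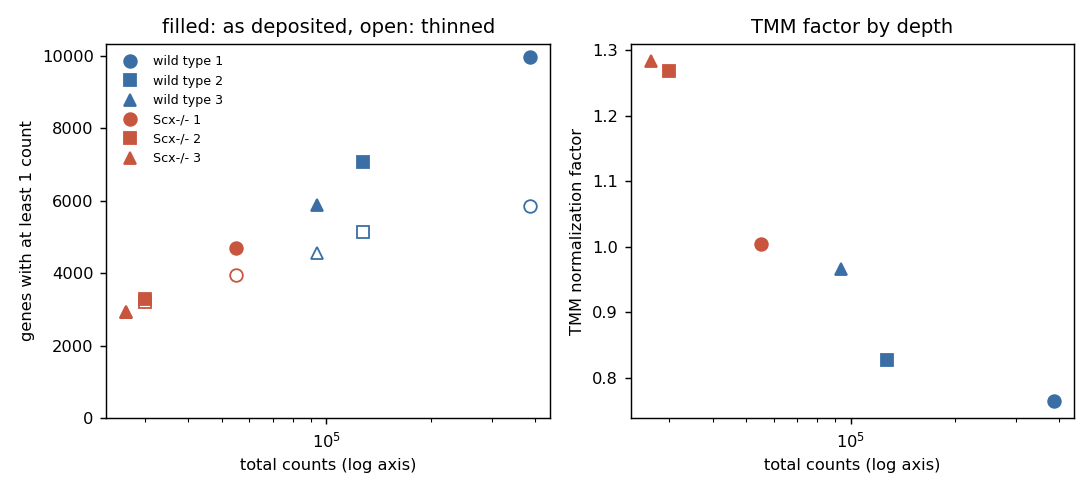
Left, genes with at least 1 count against total counts (log axis) for each intestine library, as deposited (filled) and after thinning to 26500 counts (open). Right, TMM factor against total counts. Wild-type libraries are blue and Scx-/- libraries red, and the shape gives the replicate number; all 3 Scx-/- libraries lie left of and, in genes detected, below the 3 wild-type libraries.

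The libraries carried the transcripts of small intestinal epithelium. Apolipoprotein genes, needed for packing absorbed fat into chylomicrons, took a large part of the counts: Apoa4 stood at 27970, 9988 and 22200 CPM in wild-type and at 19110, 57870 and 33550 CPM in Scx-/- intestine. The intestinal fatty acid-binding protein Fabp2 was counted at 8928, 3392 and 10440 CPM against 8152, 13030 and 9245 CPM. Both genes overlapped between genotypes and were not called. Goblet cell (Zg16, Tff3), Paneth cell (Lyz1, Defa24) and smooth muscle (Acta2) markers were present in all 6 libraries, while the goblet cell mucin Muc2 was at 0 in every one of them. Scx itself (chromosome 15 of mm10, 76457452 to 76459458, plus strand, inside Bop1 on the other strand) had 0 counts in all 6 libraries. A count of 0 allows up to 4.93 CPM over the wild-type group and 26.9 CPM over the Scx-/- group, so the intestine gives no check of the genotype label and no difference in Scx was detectable at this depth.

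A gene was called when p fell below 0.05 before adjustment and the log2 fold change exceeded 1 in either direction, the limits used by the study. By edgeR's quasi-likelihood test this was so for 513 of 12068 genes, 4.25%. Of these, 156 genes (1.29%) were higher in Scx-/- intestine and 357 genes (2.96%) were lower. No gene (0%) reached a Benjamini-Hochberg adjusted p under 0.05, the smallest being 0.652, and DESeq2 gave 1 gene, Arsg. Before adjustment p was under 0.05 for the same 513 genes, a share below that limit of p. In counts simulated at these depths with a dispersion of 1.7, near the 1.74 of the data, 3.82% of unchanged genes were called. Of those 411 calls, 314 were lower, and 0 of 200 genes changed 16-fold reached an adjusted p under 0.05. The count of calls therefore gives no number of changed genes. The balance of directions depended on scaling: 69.6% of called genes were lower with TMM factors, 45% with DESeq2's size factors in edgeR and 41.5% with library totals. Among all genes tested the median log2 fold change was -1.63, and among the 1953 genes with at least 100 CPM (mean of the group means) it was -0.33 with TMM, 0.07 with size factors and 0.14 with totals, so each log2 fold change given here is to be read against that shift.

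Many called genes rested on few counts. A count of 0 in all 3 Scx-/- libraries was found for 283 of the 513 genes and a count of 0 in all 3 wild-type libraries for 127, and 106 genes had counts in a single library. Among the 1953 genes with at least 100 CPM, 85 were called, and 207 (10.6%) had CPM values that did not overlap between genotypes. Both held for 46 genes, of which 3 were higher and 43 lower in Scx-/- intestine. Without wild-type replicate 1, the deepest library, 125 genes were called in all, and without wild-type replicate 2, 208. The 46 gene lists held 53 called genes, of which 28 passed with both size factors and library totals. Ang4 and Pigr were the 2 of these 53 that stayed called whichever library was left out.

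**Figure D2:**
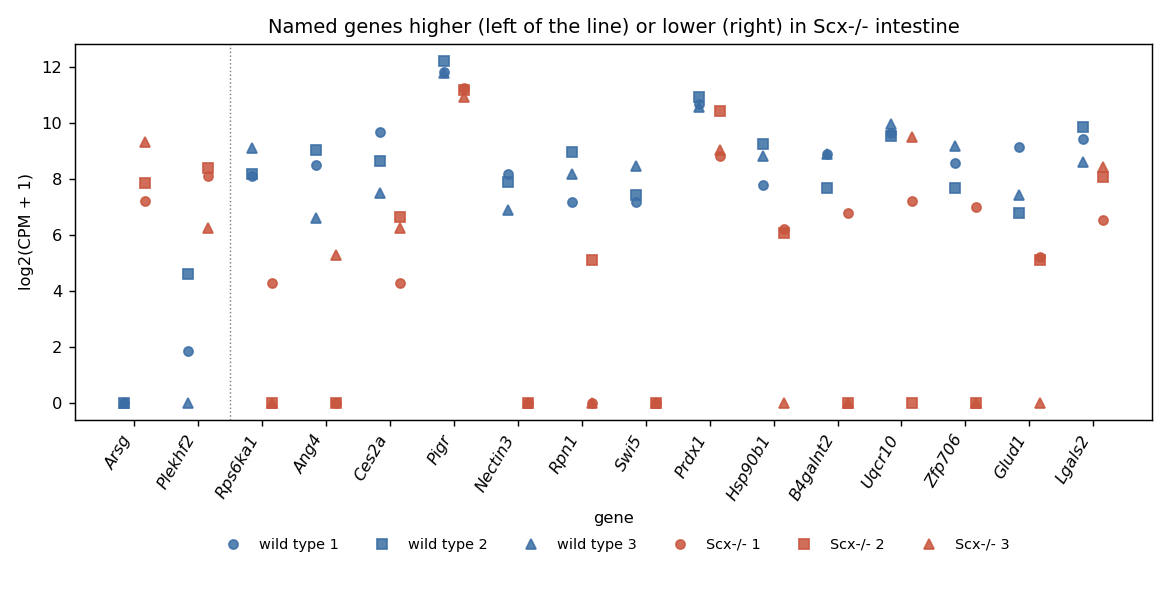
log2(CPM + 1) of 2 genes called higher and the 14 genes called lower among the named genes, which have at least 100 CPM and no overlap, 1 point per library, wild-type blue and Scx-/- red. Arsg sits at 0 in every wild-type library, and Nectin3 and Swi5 sit at 0 in every Scx-/- library.

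Of all genes tested, the smallest p was that of Arsg, which encodes the lysosomal sulfatase arylsulfatase G (chromosome 11, 109473374 to 109573330). No count fell on it in the 3 wild-type libraries, and it was counted 8, 7 and 17 times in the Scx-/- libraries, 146, 233 and 642 CPM. Set against a floor of 3 counts over the wild-type group, it was at least 58.2-fold higher. Its adjusted p was 0.652 with edgeR and 0.0353 with DESeq2, and it was called under all 14 alternatives. In the other 15 tissues the mean level of Arsg was at most 22.5 CPM in wild-type (cortex) and at most 24.6 CPM in Scx-/- mice (spleen). The Scx-/- intestine stood at 340 ± 265 CPM (SD, n = 3), but these values had selected the gene, so the contrast is no separate support. The gene overlaps Slc16a6 on the opposite strand, and the strand setting of the counting is not given, so reads from the pair cannot be told apart.

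Plekhf2, an endosomal protein with a phosphoinositide-binding domain, was also called higher. It was counted at 2.58, 23.6 and 0 CPM in wild-type and at 273, 333 and 75.5 CPM in Scx-/- libraries (log2 fold change 4.14 ± 1.96). That call was lost when any 1 of wild-type replicates 1 and 3 and Scx-/- replicates 1 and 2 was left out.

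Among genes called lower, Rps6ka1 had the smallest p of those that did not overlap. It encodes RSK1, a kinase activated by ERK signaling (chromosome 4, 133847290 to 133887797). Its level was 277, 291 and 554 CPM in wild-type and 18.2, 0 and 0 CPM in Scx-/- intestine, 196 counts of 608173 against 1 of 111469, a ratio of 35.9 with a 95% counting interval of 6.37 to 1426. Nectin3, a cell adhesion molecule of adherens junctions, was at 290, 236 and 117 CPM in wild-type and at 0 in every Scx-/- library, at least 9.35-fold lower against a floor of 3 counts over the group. Swi5, a partner of Sfr1 in homologous recombination, was likewise at 145, 173 and 351 CPM against 0 in all 3, at least 6.78-fold lower. Swi5 overlaps Golga2 on the other strand. These genes, with Ang4, stayed called under every alternative that gave a value, 14 for Rps6ka1 and Swi5 and 13 for Nectin3 and Ang4. Rps6ka1, Nectin3 and Swi5 were each higher in wild-type intestine than in any other wild-type tissue. The same wild-type values had selected them as falls, so this rank is no separate support. For Swi5 the means were 222.9 CPM in wild-type intestine, 176.5 CPM in wild-type kidney and 234.6 CPM in Scx-/- bone.

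The antimicrobial and immune exclusion genes that increase around weaning included several of the called falls. Ang4, an angiogenin secreted by Paneth and goblet cells (chromosome 14, 51763878 to 51773590), was at 362, 526 and 95.8 CPM in wild-type and at 0, 0 and 37.7 CPM in Scx-/- libraries, 216 counts against 1. Its pooled ratio was 39.6, with a counting interval of 7.03 to 1571. Pigr, which carries IgA across the epithelium, stood at 3619, 4766 and 3545 CPM in wild-type and at 2438, 2299 and 1962 CPM in Scx-/- intestine (log2 fold change -1.29 ± 0.44). With 2340 and 255 counts it was the best measured of the named falls, and no library overlapped, yet it did not pass the thresholds with size factors, with totals, after filterByExpr, with DESeq2 or in the joint fit. Lyz1, the Paneth cell lysozyme, was called lower, though not with size factors or totals, with overlapping values of 2890, 2827 and 1491 CPM against 1456, 966 and 2226 CPM. Of the 10 listed genes of the weaned intestine, 3 were called (30%), all lower, where 2.96% of all genes were; of these, Ang4 passed with both other scalings. The median log2 fold change of the list was -1.15, less negative than the -1.63 over all genes tested, and -1.16 over its 9 genes with at least 100 CPM, beside -0.33 over all genes at that level.

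Among the genes of the milk phase, lactase (Lct), the milk sugar hydrolase, was at 1303, 589 and 841 CPM in wild-type and at 1256, 1333 and 1208 CPM in Scx-/- intestine (log2 fold change -0.02 ± 0.63). Pck1, an enzyme of glucose synthesis, stood at 1677, 448 and 1256 CPM against 1237, 433 and 1057 CPM. Neither gene was called, and both overlapped between genotypes. Over the 14 tested genes of suckling enterocytes the median log2 fold change was -0.79, against -1.63 over all genes tested, and over the 10 with at least 100 CPM it was -0.38, against -0.33.

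The antimicrobial Reg and Paneth list had 2 of 18 genes called (11.1%, beside 4.25% over all genes), Lyz1 and Ang4, both lower. All 13 of its genes with at least 100 CPM had a negative log2 fold change, as did 1216 of the 1953 genes at that level, with a median of -0.90 against -0.33 for all genes at that level. The most counted members overlapped, with Reg1 at 2600, 7915 and 9550 CPM in wild-type and at 10950, 5064 and 5283 CPM in Scx-/- libraries. Paneth cell defensin Defa24 stood at 6780, 6902 and 3907 CPM against 7879, 4498 and 4415 CPM. The summed counts of the list were 18460 to 25540 CPM in wild-type and 14490 to 25310 CPM in Scx-/- intestine. The median stayed below 0 with size factors (-0.45) and with totals (-0.39), whose medians over all genes at that level were above 0, while the summed levels overlapped.

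Absorptive functions were covered by 4 lists, of which the hydrolases and lipid absorption had a share of called genes near the 4.25% over all genes, and microvillus structure and transporters a higher share. Of 18 brush border hydrolases, 1 was called (5.56%), Tmprss15 (enteropeptidase, the activator of trypsinogen), at 0 in wild-type and at 91.0, 66.6 and 0 CPM in Scx-/- libraries. Alkaline phosphatase Alpi was at 1044, 1610 and 1799 CPM against 3749, 3565 and 566 CPM. Of 21 lipid absorption genes, 1 was called (4.76%), the fatty acid transporter Slc27a4. It was lower, at 982, 291 and 1171 CPM in wild-type and at 437, 0 and 453 CPM in Scx-/- libraries. The microvillus structure list had 3 of 13 genes called (23.1%), all lower, where 2.96% of all genes were. Its motor protein Myo1a was at 1256, 1822 and 1853 CPM in wild-type and at 1001, 1166 and 868 CPM in Scx-/- intestine, without overlap. The protocadherin Cdhr5 was at 1298, 754 and 1703 CPM against 437, 600 and 868 CPM, and the scaffold Slc9a3r1 (NHERF1) at 1272, 707 and 1246 CPM against 655, 400 and 453 CPM. None of the 3 passed with size factors or with library totals. Slc27a4 did not pass with either of these scalings. Of 17 nutrient transporters, 2 were called (11.8%), both lower: Slc7a7, the exporter of basic amino acids, and the phosphate transporter Slc34a2. Slc34a2 did not pass with either scaling and Slc7a7 did not with totals. The intestinal calcium-binding protein S100g, whose amount differs along the gut, ranged from 323 to 18930 CPM among the wild-type libraries alone.

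**Figure D3:**
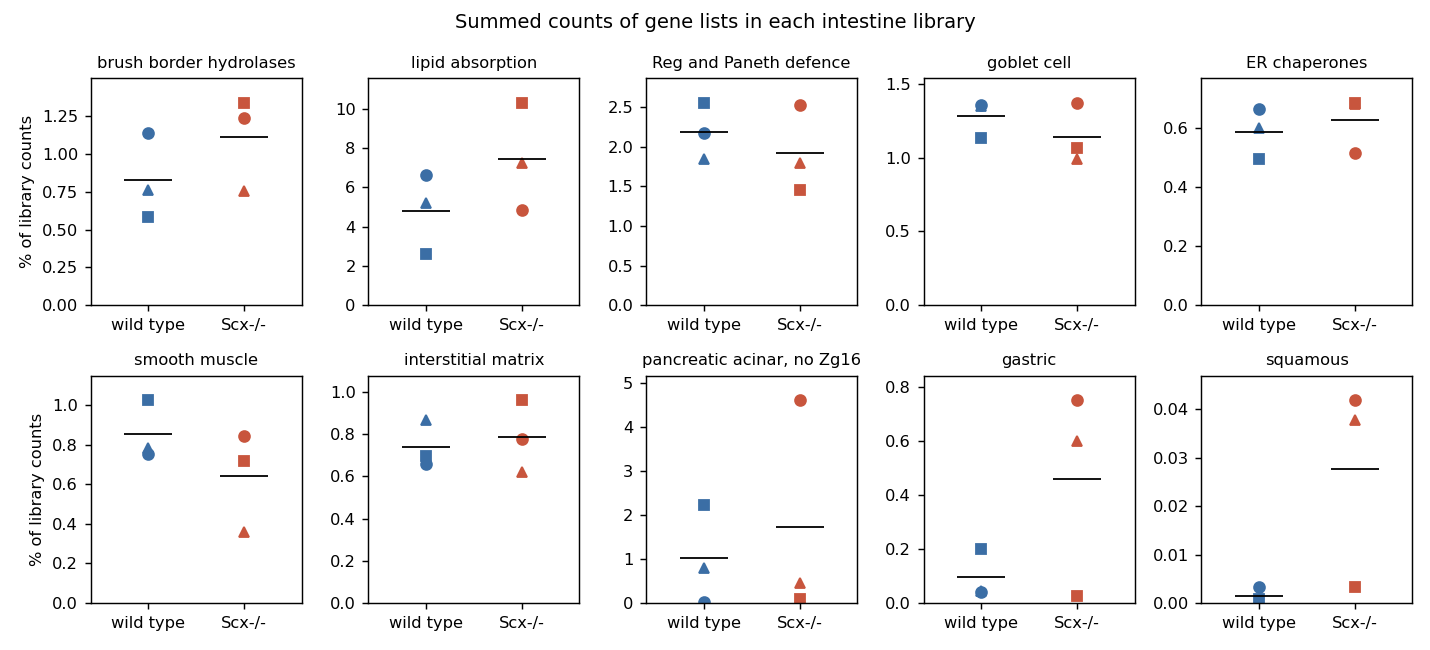
Summed counts of 10 gene lists as a percentage of all counts in each intestine library, the pancreatic list without Zg16 (points, shape by replicate number) with the group means (lines). The groups overlap in every list, and the gastric and squamous sums are high in Scx-/- replicates 1 and 3 and low in Scx-/- replicate 2.

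Endoplasmic reticulum (ER) chaperones, which fold secreted and membrane proteins, had 3 of 18 genes called (16.7%), all lower, where 2.96% of all genes were. Hspa5 (BiP), the main Hsp70 chaperone of this compartment, stood at 669, 667 and 351 CPM in wild-type and at 218, 200 and 226 CPM in Scx-/- intestine (log2 fold change -1.88 ± 0.94). Hsp90b1 (Grp94) was at 220, 605 and 447 CPM against 72.8, 66.6 and 0 CPM (-3.46 ± 1.28), and Sdf2l1 at 67.2, 118 and 53.2 CPM against 0 in all 3 libraries. These 3 genes did not overlap between genotypes. The same held for 5 of the 11 listed genes with at least 100 CPM, beside 10.6% of all genes at that level. Hspa5 and Sdf2l1 did not pass with size factors or with totals. Other members did not follow: calreticulin (Calr) was at 871, 620 and 681 CPM against 673, 1166 and 1208 CPM, and the disulfide isomerase P4hb at 2350, 1366 and 2470 CPM against 2293, 4764 and 4075 CPM. Without wild-type replicate 2, none of the list was called, and without Scx-/- replicate 1, 7 were.

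Chaperone promoters are known for the ER stress response element, and its letters were searched in the 250 bases upstream of each RefSeq gene start (GRCm38.p6, both strands). The motif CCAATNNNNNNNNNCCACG was present in 37 of 32851 such windows, 0.113%, and in those of 7 of the 17 chaperone genes with a window. All 8 matches are shown because they are a sequence that called and uncalled members have in common, with the motif in capitals and 5 flanking bases on each side, written 5′ to 3′ on the strand that carries the motif.
Hspa5, chr2:34772020-34772048, plus strand: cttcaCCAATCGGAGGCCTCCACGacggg
Hsp90b1, chr10:86705633-86705661, minus strand: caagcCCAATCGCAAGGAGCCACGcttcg
Hsp90b1, chr10:86705528-86705556, plus strand: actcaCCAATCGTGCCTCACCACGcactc
Calr, chr8:84847070-84847098, plus strand: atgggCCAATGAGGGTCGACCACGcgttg
Creld2, chr15:88819515-88819543, minus strand: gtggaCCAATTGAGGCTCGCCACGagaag
Dnajc3, chr14:118937822-118937850, plus strand: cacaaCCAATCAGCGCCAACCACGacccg
Canx, chr11:50325795-50325823, minus strand: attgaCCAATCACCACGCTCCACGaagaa
Pdia6, chr12:17266486-17266514, plus strand: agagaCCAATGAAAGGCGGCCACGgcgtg

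Hspa5 and Hsp90b1 were called and carried the motif, and Calr, Canx, Pdia6, Dnajc3 and Creld2 carried it and were not called. Canx was at 631, 314 and 202 CPM in wild-type and 109, 233 and 37.7 CPM in Scx-/- libraries, and Pdia6 at 222, 165 and 266 CPM against 109, 0 and 151 CPM. Dnajc3 was at 62.0, 0 and 213 CPM against 127, 33.3 and 528 CPM, and Creld2 at 36.2, 23.6 and 53.2 CPM against 72.8, 0 and 113 CPM, with log2 fold changes above 0 (0.90 and 0.29) where those of Canx and Pdia6 were below 0 (-2.12 and -1.73). Sdf2l1, called, had no match to these letters in its window. The matches describe the windows only.

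Detoxifying enzymes had 3 of 23 genes called (13%, beside 4.25% over all genes), all lower. Ces2a, a carboxylesterase of gut and liver, was at 830, 401 and 181 CPM in wild-type and at 18.2, 99.9 and 75.5 CPM in Scx-/- intestine (log2 fold change -3.52 ± 1.18), and its call was lost without wild-type replicate 1. Its relative Ces2e stayed at 1629 to 2701 CPM in wild-type and 2093 to 2399 CPM in Scx-/- libraries. Cyp1a1 and Aldh1a1 were the other called genes, both with overlapping values and neither called with size factors or with totals. The antioxidant peroxidase Prdx1 was at 1646, 1979 and 1533 CPM in wild-type and at 455, 1366 and 528 CPM in Scx-/- intestine (-1.66 ± 0.60).

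The other named genes called lower belonged to glycan synthesis, mitochondria and other functions. Each of the calls in this paragraph was lost when a library was left out: wild-type replicate 2 for Rpn1, wild-type replicate 1 for B4galnt2 and Glud1, wild-type replicate 1 or 3 for Zfp706, wild-type replicate 1 or 2 for Lgals2, and Scx-/- replicate 2 for Uqcr10. Lgals2 also did not pass with size factors, totals, thinning or DESeq2, nor Uqcr10 with totals, filterByExpr or DESeq2, and Glud1 did not pass with thinning. Rpn1, a subunit of the oligosaccharyltransferase that attaches N-glycans, had 146 counts in wild-type and 1 in Scx-/- libraries (ratio 26.8, counting interval 4.73 to 1064). B4galnt2, a glycosyltransferase of the gut epithelium, was at 481, 204 and 479 CPM against 109, 0 and 0 CPM. Glud1, mitochondrial glutamate dehydrogenase, was at 558, 110 and 170 CPM against 36.4, 33.3 and 0 CPM. Zfp706 stood at 377, 204 and 575 CPM against 127, 0 and 0 CPM. Lgals2, a galectin of gut epithelium, was at 688, 919 and 394 CPM in wild-type and at 91.0, 267 and 340 CPM in Scx-/- intestine. Uqcr10, a subunit of respiratory complex III, was at 794, 746 and 990 CPM against 146, 0 and 717 CPM. It was among 3 of 73 respiratory chain genes called, all lower, a share of 4.11% beside 4.25% over all genes.

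Among 14 tested goblet cell genes, 1 was called (7.14%, beside 4.25% over all genes), Agr2, an isomerase needed for mucin folding. It was at 362, 652 and 287 CPM in wild-type and at 127, 167 and 75.5 CPM in Scx-/- intestine without overlap, but did not pass with size factors, with totals, or without wild-type replicate 1 or 2 or Scx-/- replicate 3. Of 15 enteroendocrine genes, 3 were called (20%), Gip and Ghrl lower and Pyy higher. Gip, the incretin of the upper small intestine, was at 346, 70.7 and 160 CPM against 18.2, 33.3 and 0 CPM. Its call was lost with size factors and with totals. Ghrl (ghrelin) was at 28.4, 102 and 266 CPM against 0 in all 3 Scx-/- libraries, a call lost without wild-type replicate 3. Pyy, the peptide of the lower gut, was counted in Scx-/- replicate 3 alone, at 264 CPM.

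In the wall of the gut, where smooth muscle and connective tissue lie, 2 of 22 smooth muscle genes were called (9.09%, beside 4.25% over all genes), Smtn and Ckb, both lower. Neither passed with size factors or with totals, and Smtn passed with 1 of the 6 libraries left out in turn. Its level was 75.0, 204 and 202 CPM in wild-type against 18.2, 0 and 0 CPM. Acta2, smooth muscle actin, was at 982, 1052 and 916 CPM in wild-type and at 1274, 733 and 453 CPM in Scx-/- intestine. Of 23 interstitial matrix genes, 2 were called (8.7%), Col1a2 and the collagen chaperone Serpinh1, both lower. Serpinh1 did not pass with either scaling, and Col1a2 did not with totals. Col1a2 was at 548, 997 and 884 CPM against 564, 99.9 and 113 CPM, and overlapped in Scx-/- replicate 1. Col1a1 was at 569, 1013 and 1022 CPM against 655, 766 and 226 CPM and was not called. None of the 6 tested tendon lineage genes was called, and Tnc, the most counted of them, was at 56.9, 55.0 and 106 CPM in wild-type and at 0, 400 and 264 CPM in Scx-/- libraries. In whole tissue, fewer cells of a type and less RNA per cell cannot be told apart.

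Genes of neighbouring organs differed between single libraries. The gastric list had 4 of 12 genes called (33.3%), all higher in Scx-/- intestine, where 1.29% of all genes were: Gkn1, Gkn2, Tff1 and Chia1. Gkn1, a secreted protein of the stomach surface, was at 59.4, 471 and 42.6 CPM in wild-type and at 1365, 99.9 and 2453 CPM in Scx-/- libraries. The summed level of the list was 414, 2010 and 447 CPM in wild-type and 7515, 267 and 6000 CPM in Scx-/- libraries, and 165000 to 248400 CPM in the stomach. Without Scx-/- replicate 1, 2 of these genes were called and the list's median log2 fold change was 0.30 in place of 1.99. Squamous epithelial genes had 3 of 6 called (50%), all higher, of which Krt10 and Dmkn were counted in Scx-/- replicate 1 alone and Lor in Scx-/- replicates 2 and 3. None of the squamous genes was called without wild-type replicate 1 or after thinning, 1 was without wild-type replicate 2 or without Scx-/- replicate 1, and without the latter the list's median log2 fold change was -1.85 in place of 4.22. Of the 16 tested pancreatic acinar genes none was called. Without Zg16, which goblet cells express as well, they summed to 103, 22350 and 7921 CPM in wild-type and to 46000, 866 and 4604 CPM in Scx-/- libraries. The part of such tissue in the other results was not tested.

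The change in the intestine was then set beside that in rectum and stomach, the neighbouring organs of the same design, by the interaction term of a joint fit over 18 libraries and 16976 genes. For each organ 5 genes (0.0295%) had an adjusted p under 0.05. Over 11 alternatives, the call against the rectum held in 10 for Ly6d and 1600014C10Rik, 7 for Sfn, 4 for Krt14 and 3 for Ckm, and Krt14 and Ckm were lost with size factors and with totals. The call against the stomach held in 11 for Ces2e, 10 for Ghrl, 9 for Spink1 and 5 for Krt10 and Pla2g1b. When genotype and replicate number together entered as a block, Sfn, Ckm, 1600014C10Rik, Krt10 and Pla2g1b were lost. Against the rectum these were Ly6d, Krt14, 1600014C10Rik, Sfn and Ckm, all with a lower change in the intestine. Krt14, a basal keratin of squamous epithelium, went from a mean of 0 to 1608 CPM in the rectum and from 11.2 to 0 CPM in the intestine, and Ly6d from 0 to 926 CPM and from 22.7 to 12.1 CPM. In the intestine Krt14 had 13 counts in wild-type and 0 in Scx-/- libraries. Its wild-type level lay under the 26.9 CPM that a count of 0 allows in the Scx-/- group, so a fall was not measurable. For Sfn, the epithelial 14-3-3 protein, both organs moved, from 65.2 to 526 CPM in the rectum and from 193 to 11.1 CPM in the intestine.

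Against the stomach, Spink1, Ces2e and Ghrl changed less or in the other direction in the intestine, and Krt10 and Pla2g1b more. Spink1, a trypsin inhibitor, averaged 1583 CPM in wild-type and 2162 CPM in Scx-/- intestine, and 0 and 59.0 CPM in the stomach. Ces2e averaged 2124 and 2290 CPM in the intestine against 0 and 34.4 CPM in the stomach, so that for both genes the fold lay in the stomach. Ghrl averaged 132 CPM in wild-type and 0 CPM in Scx-/- intestine, and 1010 and 1990 CPM in the stomach (difference of log2 fold changes -8.53 ± 1.76, adjusted p = 0.00703). The joint fit itself gave 4 genes with an adjusted p under 0.05 in the intestine, Krt10, Pla2g1b, Lor and Ghrl, of which Krt10 and Lor are squamous genes. Pla2g1b, a secreted phospholipase A2, was counted in these libraries most in the stomach, at 12420 to 14970 CPM in wild-type, against 18.1 to 31.4 CPM in wild-type and 66.6 to 455 CPM in Scx-/- intestine.

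The replicate number carried information on the mouse. Laboratory mice carry alternative sets of adult beta globin genes, Hbb-bs and Hbb-bt or Hbb-b1 and Hbb-b2, whose reads can be shared between near-identical copies. In intestine, Hbb-bs and Hbb-bt took 124 of 208 beta globin counts in wild-type replicate 2, 59.6% (exact 95% interval 52.6% to 66.3%), and 0 counts in the other 5 libraries, which held 125 to 1306 beta globin counts. Across the series the share was 38.5% to 59.6% in the wild-type replicate 2 libraries of all 16 tissues and at most 0.594% in the other 80 libraries. Hbb-bs, at 856 CPM in wild-type replicate 2 and at 0 elsewhere in the intestine, was nevertheless called lower in Scx-/- intestine, with the smallest p of all genes called lower. The summed counts of the 8 listed erythroid genes ran the other way, at 3701, 1727 and 2513 CPM in wild-type and 5732, 6630 and 4906 CPM in Scx-/- intestine without overlap, while the median log2 fold change of the 8 genes was -0.70 and Hbb-bs was the 1 called. Hbb-b1 was at 3053, 534 and 2076 CPM against 4622, 5131 and 4226 CPM and was not called.

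**Figure D4:**
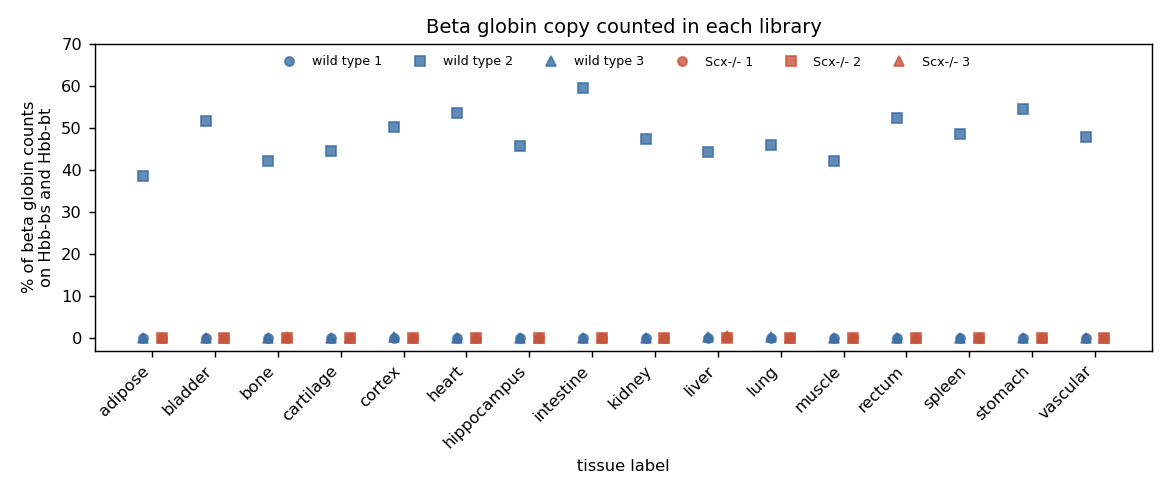
Percentage of beta globin counts that fell on Hbb-bs and Hbb-bt in each of the 96 libraries, by tissue label, with wild-type blue, Scx-/- red and the shape giving the replicate number. The wild-type replicate 2 libraries lie between 38.5% and 59.6% in all 16 tissues, and the other 80 libraries lie at or near 0.

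The sexes were mixed within both genotypes. Xist, transcribed from the inactive X chromosome, had 156 and 32 counts in wild-type replicates 1 and 3 and 30 in Scx-/- replicate 1, and 0 in the other libraries. The Y-linked genes Ddx3y, Eif2s3y, Kdm5d and Uty had 47 counts in wild-type replicate 2 and 4 in Scx-/- replicate 2. Scx-/- replicate 3 had 0 counts of either kind at its depth of 26500 counts. The part of sex in the other results was not tested.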

How the data were processed

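The deposited values are counts, whole numbers per gene symbol without normalization. Per the labels and the study's methods, the authors extracted RNA with Trizol from frozen organs, barcoded each sample during reverse transcription, pooled the samples for a 3′-enriched Nextera XT library, mapped reads to mm10 with Bowtie2 and counted them with HTSeq. Of versions, annotation, strand setting and use of molecular identifiers nothing is given in the sources used here, so intervals and floors cover counting error only. All 96 columns were matched to samples by title. Because reads come from the 3′ end, CPM was not divided by length.

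Genes at 0 in all 6 libraries were removed, and edgeR 4.0.16 (R 4.3.3, limma 3.58.1) was run with TMM factors and robust quasi-likelihood fits, with Benjamini-Hochberg adjustment. SE is the absolute log2 fold change over the square root of F. The interaction used 18 libraries and 6 groups. Exact tests, intervals and figures were made in Python 3.11.15 with scipy 1.17.1 and matplotlib 3.10.9. Positions are from a GRCm38 (mm10) annotation and promoters from RefSeq (GRCm38.p6), with a window for 17 of 18 chaperones. The scripts were tested on simulated data.

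Alternatives were size factors (RLE), totals, filterByExpr, thinning, a replicate block, no robust estimation, DESeq2 1.42.0, a joint fit, and leaving out each library; a block of genotype and number together and a pancreatic sum without Zg16 were added after the data were seen. Members and gene lists were chosen with earlier results of these data known. Genes named are Scx, up to 10 rises and 14 falls of smallest p among called genes without overlap and with at least 100 CPM (3 rises qualified, of which 1 is not reported here), genes passing an adjusted p of 0.05, and those among list members called or most counted. Hbb-bt, Muc2, Canx, Pdia6, Dnajc3, Creld2 and the Y-linked genes were named after their values were seen. Of 46 lists, those that bear on the text are printed. Between replicates of a genotype the chi-square per degree of freedom was at least 11.4, so no library was a copy of another.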

Additional observations from a re-analysis of the deposited data

Results flagged for a closer look

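The genes listed here had a change between genotypes that differed between the intestine and a neighbouring organ by the test of that difference, an interaction term with an adjusted p under 0.05 (edgeR). Values are the log2 fold change (Scx-/- over wild-type) in intestine minus that in the other organ. Against the rectum, the difference was -11.16 for Ly6d, -15.93 for Krt14, -16.54 for 1600014C10Rik, -7.73 for Sfn and -8.82 for Ckm. For Krt14 and 1600014C10Rik a group mean was 0 in both organs, so the size of these differences is not measured. The squamous list summed to 12.03 to 27.6 CPM in wild-type and 9833 to 23720 CPM in Scx-/- rectum, and its part in these differences was not tested. Against the stomach, the difference was -7.34 for Spink1, -6.78 for Ces2e and -8.53 for Ghrl, and 6.43 for Krt10 and 3.00 for Pla2g1b. With genotype and replicate number together as a block, Sfn, Ckm, 1600014C10Rik, Krt10 and Pla2g1b no longer had an adjusted p under 0.05. Krt14 and Ckm were also lost with size factors and with totals. Pancreatic acinar genes without Zg16 summed to 556 to 1465 CPM in wild-type and 1291 to 29370 CPM in Scx-/- stomach.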

How the results depend on the processing

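The number of called genes, 513, was 46 after filterByExpr (1366 genes tested), 229 after thinning, 88 with the replicate block and 1626 in the joint fit, and 125 to 533 when a library was left out; the other alternatives gave 353 to 545. Of the 513 genes, 357 remained called with size factors and 338 with totals. The share of called genes that were lower was 49.6% with DESeq2, 95.5% with the replicate block and 84.3% in the joint fit. The deviations of same-numbered wild-type and Scx-/- libraries had r = -0.097, -0.003 and -0.015, and those of differently numbered ones r = -0.0379 to 0.0611. With 26500 to 54955 counts in the Scx-/- libraries, values near 0 cannot show whether the numbers pair the genotypes. The number of genes with an adjusted p under 0.05 was 0 throughout except for 1 without robust estimation (Rn18s-rs5, at 32740 CPM in wild-type replicate 2), 1 with DESeq2 (Arsg) and 4 in the joint fit, and it was 0 to 2 when a library was left out (St3gal4 without Scx-/- replicate 2, and Rnr2 and Ubb without Scx-/- replicate 3). For the difference from the rectum, 5 genes, the count was 5 with size factors and 6 with totals (both without Krt14 and Ckm, and with Ccl25 and Cd68 in the other direction), 2 to 9 with a library left out and 2 with genotype and number together as a replicate block (Krt14, Ly6d). For the difference from the stomach, 5 genes, it was 11 with size factors, 11 with totals, 8 after filterByExpr, 3 with the replicate block, 3 with genotype and number as a block (Ces2e, Ghrl, Spink1), and 2 to 12 with a library left out. The fewest came without wild-type replicate 1 (rectum) and wild-type replicate 3 (stomach), and the most without Scx-/- replicate 1. For the 17 named rises and falls, no alternative reversed a direction, and 34 of 234 values lost their call. The cause of these changes was not tested. Depth limits the Scx-/- group most: a gene must exceed 26.9 CPM over the group to be told from 0.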

Other observations

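The count of Xist against that of 4 Y-linked genes followed the replicate number in most tissues, but not throughout bone and cartilage. Xist was the larger in 15 of 16 tissues for wild-type replicate 1, in 16 of 16 for wild-type replicate 3 and in 15 of 16 for Scx-/- replicate 1. The Y-linked genes were the larger in 15 of 16 tissues for wild-type replicate 2, in 14 of 16 for Scx-/- replicate 2 and in 15 of 16 for Scx-/- replicate 3. Bone and cartilage held the reversals. In bone, Xist and Y-linked counts were 3 and 56 in Scx-/- replicate 1 and 68 and 0 in Scx-/- replicate 2. In cartilage they were 3 and 29 in wild-type replicate 1 and 116 and 3 in Scx-/- replicate 2. There the number went with the other sex, so it need not mark 1 mouse in every tissue. By correlation of log2(CPM + 1) over all genes, wild-type intestine replicate 1 lay nearest to a stomach library (Scx-/- replicate 1, r = 0.782), and the other 5 intestine libraries lay nearest to wild-type intestine replicate 1 (r = 0.550 to 0.757). Genes at 0 entered this r. Each wild-type library had a higher mean r with stomach (0.647 to 0.754) than with intestine (0.617 to 0.652). Each Scx-/- library had a higher mean r with wild-type intestine than with its own genotype. The part of depth in these values was not tested.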
